A study of Homo sapiens with 6 samples.

Results

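Replicate 1 was set against replicates 2 and 3 across all 6 arrays of REH cells, with the shRNA group as a second term. REH cells are an established line from an acute leukemia of B-cell precursors, express the fusion gene ETV6/RUNX1 and, according to the study, lack the other ETV6 allele. All 6 cultures received a lentiviral short hairpin RNA (shRNA), 3 with the hairpin that silences the fusion (knockdown, fusionKD in the plots) and 3 with the control hairpin (NTC in the plots), which the labels call non-targeting and the study's methods describe as an ETV6 hairpin that did not hit the fusion transcript. Transduced cells carried GFP and were sorted for it, and all cultures were grown in RPMI with serum, glutamine and antibiotics. The 2 arrays with the number 1 in their title, 1 control and 1 knockdown, were taken as one side, and the 4 arrays numbered 2 or 3 as the other. Whether arrays of one number share a culture, a day, a virus preparation or an RNA extraction is not given in the sources used here, so that these cannot be told apart. A single line was used, and the study describes its replicates as biological. The contrast was selected on the expression levels of these same arrays, which had shown replicate 1 apart in earlier results, with amino acid response genes such as GPT2, SLC6A9, TRIB3, SESN2 and ASS1 at its head. Its differences and counts are therefore descriptions, and no p-value is given for them.

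Several cell states named below have well-known marker genes. When a cell runs short of an amino acid or its protein synthesis is disturbed, the transcription factor ATF4 accumulates and switches on enzymes of amino acid synthesis, amino acid transporters, tRNA synthetases and stress regulators, and it does so through composite DNA elements whose core reads TGATGNAA. Genes for DNA replication are transcribed before and during S phase, largely under E2F factors, and fall in cells that leave the cycle. Metallothioneins are small metal-binding proteins that are induced by zinc, other metals and glucocorticoids.

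Array quality was examined before the comparison. Median raw intensity ran from 66 to 75 per array, against 42.25 to 48 for the negative control spots, and 45.8% to 51.0% of probes were well above background. All 6 arrays lay on 1 slide, with the replicate 1 arrays in different rows and columns of it. Spike-in RNA had mean values of 9.02 on the replicate 1 control array, 8.53 on the replicate 1 knockdown array and 8.59 to 8.80 on the other 4 arrays. The ETV6 probe A_33_P3356325, which checks the labels, measured 7.92, 8.05 and 8.37 on control replicates 1, 2 and 3 and 7.50, 7.46 and 7.29 on knockdown replicates 1, 2 and 3, with all knockdown arrays below all control arrays. Its position relative to the fused portion was not analysed here. Of 8 B-cell precursor markers, 7 were well above background on all 6 arrays. Of 4 T-cell markers CD3D was so on all 6 arrays, CD2 on 5, and CD3E and CD3G on none. Of 3 myeloid markers CD14 and CSF1R were so on all 6 and ELANE on none, and of 4 markers of epithelium and kidney lines KRT8 and KRT18 on all 6 and EPCAM and PAX2 on none. Levels below are normalised values on a log2 scale, and differences are in log2 units of that scale.

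The promoters of the genes that lay higher in replicate 1 are shown first. The contrast was chosen with amino acid response genes at its head, and ATF4 acts on such genes. Shares of its element among the called genes therefore describe that choice and support nothing. Shares for called genes outside the amino acid lists were not computed. RefSeq promoters of GRCh38.p14, from 250 bases before to 50 bases after each start, were matched for 11494 of 14505 measured gene symbols. The core TGATGNAA, searched on both strands, was found in 221 of these (1.92%) and in 3.67% of all promoters in the table. It was found in 26 of 368 promoters of genes called higher in replicate 1 at a limma adjusted p under 0.05 (7.07%), in 11 of 70 of those higher by over 2-fold (15.7%), and in 1 of 182 promoters of genes called lower. In 8 of the genes described below it lay as follows, with 30 bases on either side, written 5′ to 3′ on the gene's strand, and with the element in capitals (TTGCATCA is the core read on the other strand).
CHAC1, chr15:40953232-40953299, plus strand: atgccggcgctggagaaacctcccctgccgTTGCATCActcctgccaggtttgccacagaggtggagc
ASNS, chr7:97872439-97872506, minus strand: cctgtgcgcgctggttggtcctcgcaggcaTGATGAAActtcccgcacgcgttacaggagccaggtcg
GOT1, chr10:99430785-99430852, minus strand: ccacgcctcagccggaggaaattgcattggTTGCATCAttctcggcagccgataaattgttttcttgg
ATF3, chr1:212565186-212565253, plus strand: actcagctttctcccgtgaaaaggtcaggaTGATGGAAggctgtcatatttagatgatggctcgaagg
AARS1, chr16:70289656-70289723, minus strand: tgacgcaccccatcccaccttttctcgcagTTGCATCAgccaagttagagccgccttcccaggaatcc
MTHFD1L, chr6:150866327-150866394, plus strand: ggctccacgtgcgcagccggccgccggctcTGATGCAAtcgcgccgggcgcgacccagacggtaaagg
HERPUD1, chr16:56931936-56932003, plus strand: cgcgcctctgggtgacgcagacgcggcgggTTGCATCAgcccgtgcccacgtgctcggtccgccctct
IL21R, chr16:27427123-27427190, plus strand: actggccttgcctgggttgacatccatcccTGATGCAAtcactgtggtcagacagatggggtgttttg

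Of the other motifs searched on both strands, the E2F sequence TTTCGCGC was found in 1.03% of promoters of all measured genes, in 1.09% of those called higher, in 4 of 182 of those called lower (2.2%) and in 4 of 28 promoters of the DNA replication list (14.3%). In the lists of mitosis, cytosolic and mitochondrial tRNA synthetases it was found in 1 promoter each. In MCM3, a subunit of the replicative helicase, it lies at the start of the gene, as shown here with the element in capitals and 11 bases on either side of it.
MCM3, chr6:52284728-52284757, minus strand: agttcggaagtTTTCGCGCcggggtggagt
The NF-Y box CCAAT was found in 36.9% of all measured promoters, in 38.0% of those called higher and in 46.2% of those called lower. Among the lists it was found in 64.3% of DNA replication and 79.2% of mitosis promoters, but also in 60% of amino acid response regulators, 58.3% of amino acid synthesis and 64.3% of mitochondrial tRNA synthetases, and in 13.3% of amino acid transporters. The E-box CACGTG was found in 9.75% of all, 8.97% of higher and 9.89% of lower ones, and in 6.25% to 21.4% of single lists, each of 28 promoters or fewer. The sterol element TCACNCCAC was found in 1.13% of all, 1.36% of higher and 1 of 182 lower ones, in 1 promoter each of amino acid synthesis and amino acid transporters, and in none of the other lists searched. These matches are a description of the sequences and do not show binding.

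Overall counts are given next. Of 57176 probes on the array, 30992 were retained as above background, for 14505 gene symbols. In replicate 1, 1330 probes (4.29%) were called at a limma adjusted p under 0.05, 898 higher (2.9%) and 432 lower (1.39%). Since the contrast was chosen for this pattern, these shares describe its extent and no more. The median difference of all retained probes was 0.01, and the central 50% of probes lay between -0.13 and 0.15. At least 2-fold differences were found for 188 called probes, 168 higher and 20 lower. Of the called probes, 1199 had both replicate 1 arrays above or below all 4 others, as did 28.4% of all retained probes. The last calls inside the threshold had differences as small as 0.49, and the first outside of 0.43 to 0.55. With normexp background correction and quantile normalization, which were changed together, the split was 1141 higher and 1022 lower. It was 386 to 247 with spike-in scaling and 115 to 68 with 75th percentile scaling of the processed signal. Replicate number as a block of 3 levels gave 620 calls, 463 higher and 157 lower. Leaving out control replicate 1, 2 or 3 gave 706, 282 or 604 calls, and leaving out knockdown replicate 1, 2 or 3 gave 413, 256 or 341. By gene symbol, with the brightest probe for each, 499 were called higher (3.44%) and 232 lower (1.6%). Of the 499, 46 belonged to 5 lists of amino acid metabolism and its regulators and 453 (90.8%) did not. Among the 102 called symbols higher by over 2-fold, 75 were outside these lists.

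The difference was then examined in each group separately. The contrast had been chosen because replicate 1 stood apart on these same arrays. Agreement between the groups therefore restates that choice and is no independent check. Over all retained probes, the replicate 1 difference in control and in knockdown had a Pearson r of 0.40 across probes. Of 340 probes at least 2-fold higher in replicate 1 of control, 113 (33.2%) were so in knockdown too, where 1.28% of all probes were. Bright patches of spots, described below, lay on some arrays, and 29343 probes had no array in one. This smaller set was chosen after the data were seen, by a rule that removes spots bright on a single array. Over it, r was 0.49, and of 0.56 over the 23255 probes well above background on all arrays. Probes are not independent, and the value describes these arrays. Over the same 23255 probes, the difference between replicates 2 and 3, a contrast not chosen in this way, had an r of 0.09 between groups. The SD of the replicate 1 difference was 0.28 in control and 0.32 in knockdown, and that of replicate 2 against 3 was 0.18 and 0.21. Outside the patches, 96 of 164 probes at least 2-fold higher in replicate 1 of control (58.5%) were so in knockdown too, where 1.03% of these probes were. Seen from knockdown, these were 96 of 303 (31.7%), against 0.559% in control. At least 2-fold lower in both were 15 probes, all outside the patches. There they made up 34.1% of 44 in control, where 0.170% of all such probes were lower in knockdown, and 30% of 50 in knockdown, where 0.150% were lower in control. They made up 18.1% of 83 and 25.4% of 59 over all retained probes. Pairwise correlations of arrays ran from 0.986 to 0.992 where a replicate 1 array was involved and from 0.991 to 0.996 among the other 4.

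**Figure D1:**
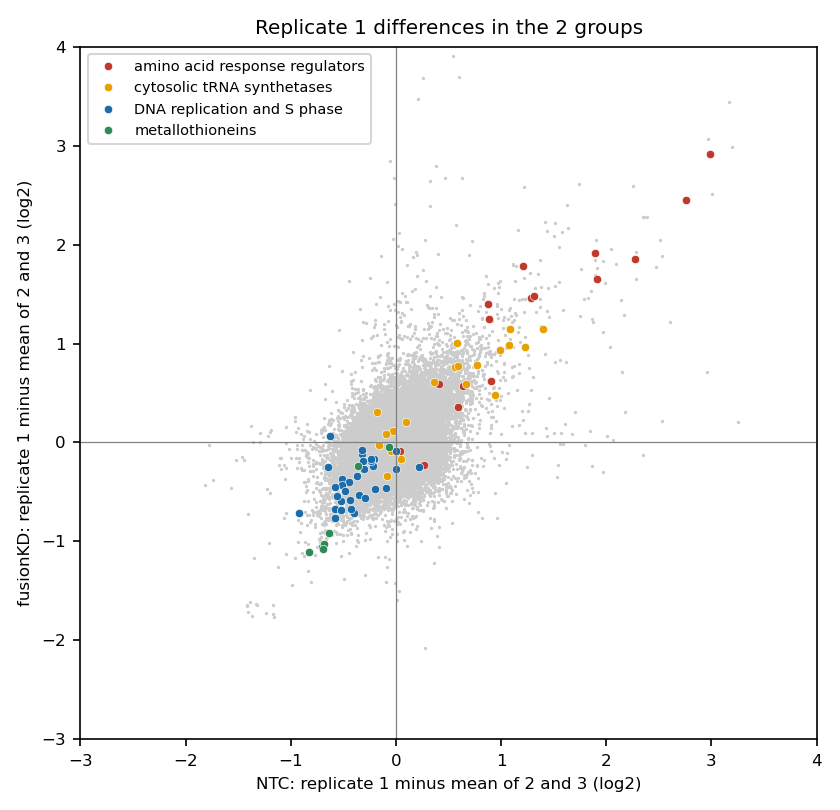
Replicate 1 minus the mean of replicates 2 and 3, in log2 units, for each of 29343 probes with no array in a bright patch, in control (x axis) and in knockdown (y axis), with members of 4 gene lists in colour. Most amino acid response regulators and cytosolic tRNA synthetases lie at the upper right, most metallothioneins and DNA replication genes at the lower left, a small grey cluster below them holds the IGLL5 and NUP62 probes, and 3 probes fall outside the axes.

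Among the called symbols with both replicate 1 arrays above all 4 others, the 12 with the largest differences are described first. Larger differences, up to 5.51, came from 3 probes that were each bright on a single replicate 1 array and were not called. SPNS3, a member of the spinster family of membrane transporters, measured 10.66 on control replicate 1 against 7.51 and 7.48 on control replicates 2 and 3, and 11.80 on knockdown replicate 1 against 8.08 and 8.64, a difference of 3.30 (SE 0.16, 6 arrays). GPT2, the mitochondrial alanine aminotransferase, measured 9.27 against 6.10 and 6.05 in control and 9.99 against 7.07 and 6.92 in knockdown. Both replicate 1 arrays lay above all 4 others in each of these genes, as the choice of names required. SLC6A9, a glycine transporter, measured 10.92 against 7.87 and 8.03 in control and 11.49 against 8.33 and 8.52 in knockdown. TRIB3, a pseudokinase induced by ATF4, measured 15.36 against 12.23 and 12.51 in control and 16.41 against 13.32 and 13.66 in knockdown. CHAC1, an enzyme that degrades glutathione, measured 12.66 against 9.85 and 9.94 in control and 12.65 against 9.89 and 10.50 in knockdown. For TRIB3 and CHAC1 the differences were 2.95 (SE 0.13) and 2.60 (SE 0.17), and for SLC6A9 it was 3.02 (SE 0.10) at one probe and 1.41 at its second.

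Not all of the largest differences concerned amino acid metabolism. IL21R, the receptor of interleukin-21, measured 11.27 against 9.10 and 8.94 in control and 11.17 against 8.42 and 8.74 in knockdown, a difference of 2.42 (SE 0.13). MEF2B, a transcription factor of germinal center B cells, measured 12.03 against 10.31 and 10.43 in control and 12.92 against 10.26 and 10.16 in knockdown. In both genes the replicate 1 arrays lay above the 4 others, as the choice of names required. DRD5, a dopamine receptor gene, had a difference of 2.13 at one probe and 1.55 at another, and ASS1, which makes argininosuccinate for arginine synthesis, one of 2.33. ASNS, asparagine synthetase, measured 14.67 against 12.45 and 12.33 in control and 14.42 against 12.58 and 12.42 in knockdown. The remaining 2 of the 12 highest symbols, JDP2 (2.06) and GUCY2F, had replicate 1 spots inside a bright patch. GUCY2F, a retinal guanylate cyclase, was not well above background on replicates 2 and 3 and was retained only through the replicate 1 arrays. Its control replicate 1 spot, in the patch, measured 8.28, and knockdown replicate 1 measured 6.06. With the patch spot masked its difference was 1.04, so that no lower bound is given for it.

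**Figure D2:**
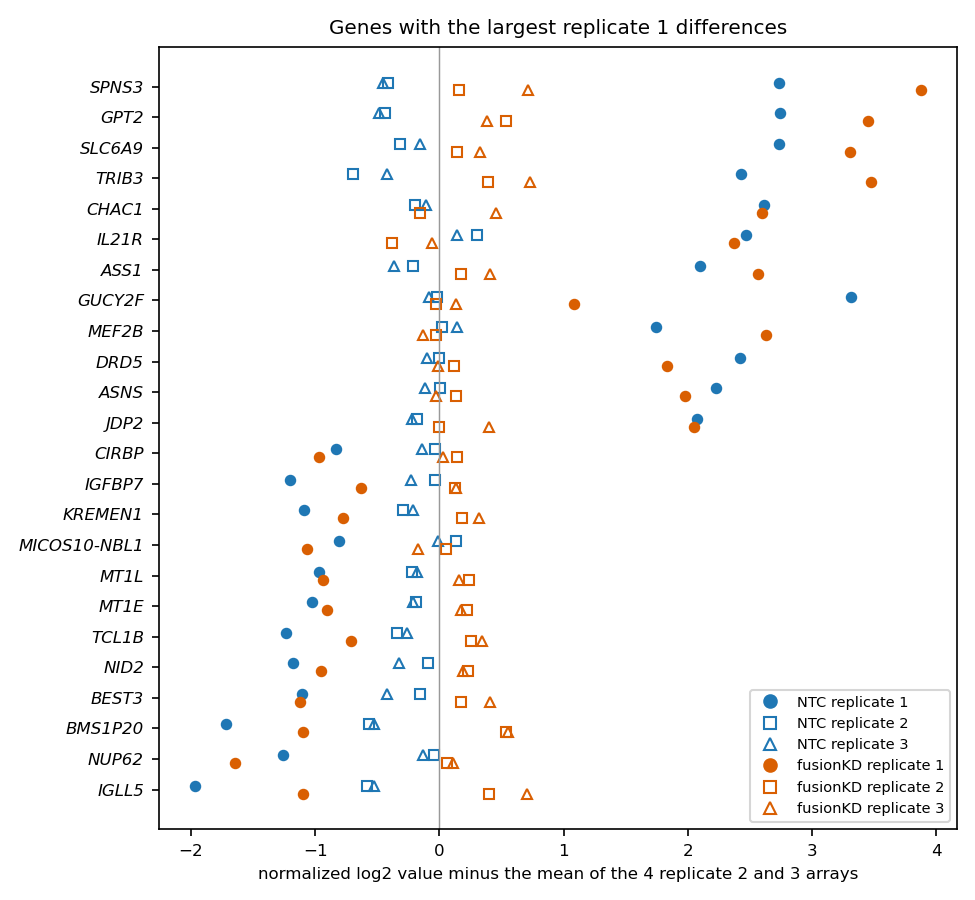
Normalised level (log2) on each of the 6 arrays minus the mean of the 4 replicate 2 and 3 arrays, for the 12 highest and 12 lowest called gene symbols, with colour for the group and marker shape for the replicate number. In SPNS3, GPT2, SLC6A9, TRIB3 and CHAC1 both replicate 1 arrays lie above the 4 others, and in IGLL5 and NUP62 below them. Such a position was a condition for being shown.

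The amino acid response was followed through 5 lists, whose members had been chosen with earlier results known. Over all measured symbols, 3.44% were called higher and 1.6% lower, and list counts are to be set against these shares. Of 16 measured regulators of the response, 13 were called higher and none lower, with a median difference of 1.25 against 0.02 for all measured symbols. The median was 1.05 in control and 1.43 in knockdown. Without knockdown replicate 1 the count was 8, and without any other single array it was 10 or 11. ATF4 itself, the factor at its center, measured 17.30 against 16.32 and 16.49 in control and 17.17 against 16.42 and 16.67 in knockdown, a difference of 0.76 (SE 0.12). Differences were 1.90 for SESN2, an inhibitor of growth signaling, and 1.78 and 1.49 for ATF5 and DDIT3, transcription factors downstream of ATF4. For ATF3, a factor of the same family whose promoter is shown above, the brightest probe gave 1.14, but its 4 probes ranged from -0.17 to 1.14. NUPR1 (0.47), GDF15 (0.02) and VLDLR (-0.02) were not called, although all 3 are often induced with this response. In the list of amino acid synthesis, 9 of 19 were called higher and 1 lower, with the serine pathway enzymes PSAT1 (1.95), PHGDH (1.16) and PSPH (0.88) and also GOT1 (0.53), an aspartate aminotransferase, among the higher ones. GOT1 lost its call when any single array was left out and with the block, as did the 1 lower member, and the higher count was then 6 to 8. Of 17 amino acid transporters, 8 were called higher and none lower, including SLC7A11 (1.80), the cystine importer, and SLC7A5 (1.56) and SLC3A2 (1.22), which form a carrier of large neutral amino acids. Without control replicate 1 or 2 this count was 4, and without knockdown replicate 2 it was 5. In the folate pathway, 4 of 15 were called higher and 1 lower, with a median of -0.08. The higher ones included the mitochondrial enzymes MTHFD2 (1.21) and MTHFD1L (1.01), for which 3 probes ranged from 0.22 to 1.01.

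Cytosolic and mitochondrial tRNA synthetases differed in their counts. Of 20 cytosolic enzymes, 12 were called higher and none lower, with a median of 0.65, and 13 had both replicate 1 arrays above all others, against 17.0% of all symbols. The count was 7, 5 and 10 without control replicate 1, 2 and 3 and 6, 6 and 7 without knockdown replicate 1, 2 and 3, while the median stayed between 0.57 and 0.65. CARS1, which charges the tRNA of cysteine, measured 10.56 against 9.23 and 9.10 in control and 10.17 against 8.97 and 9.07 in knockdown. GARS1 (1.12), AARS1 (1.1) and SARS1 (1.03) followed, for glycine, alanine and serine. Those that were not called included FARSA and FARSB, for phenylalanine, and KARS1, for lysine. Of 17 mitochondrial enzymes, none was called, and their median was 0.01. The element shown above lay in 6 of 16 promoters of the cytosolic enzymes (37.5%) and in 1 of 14 of the mitochondrial ones, compared with 2 of 15 for the response regulators (13.3%), 2 of 12 for amino acid synthesis (16.7%) and 3 of 15 for amino acid transporters (20%).

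The unfolded protein response shares ATF4 with the amino acid response, but uses other sensors for its chaperones. Of 21 measured genes of this response and of endoplasmic reticulum chaperones, 1 was called, against 3.44% of all symbols called higher. This was HERPUD1, a membrane protein of protein degradation at the endoplasmic reticulum. It measured 14.68 against 13.42 and 13.39 in control and 15.34 against 13.62 and 13.62 in knockdown, a difference of 1.5. The chaperone HSPA5 had a difference of 0.22, the co-chaperone DNAJB9 of 0.35 and XBP1 of 0.37, and none of these was called. EIF4EBP1 (1.07), an inhibitor of cap-dependent translation, XPOT (0.82), the tRNA exporter, and ULBP1 (1.90), a ligand of natural killer cells, were called higher outside all lists and were chosen after their values were seen.

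Lower genes formed smaller differences. Only 5 called symbols lay over 2-fold lower, compared with 102 higher. IGLL5, an immunoglobulin lambda-like gene, measured 11.44 against 12.83 and 12.89 in control and 12.31 against 13.81 and 14.12 in knockdown, a difference of -1.53 (SE 0.12). Both replicate 1 arrays lay below all 4 others, which was a condition for being among the 12 lowest named symbols. BMS1P20, a pseudogene that, as IGLL5, carries the immunoglobulin lambda locus among its synonyms in RefSeq, had a difference of -1.41 at one probe and of 0.08 at its second. Both genes lay among 15 probes that were at least 2-fold lower in each group, of which 14 were called. Transcripts ENST00000390313 (-1.56) and ENST00000390323 (-1.53) were among them and could not be named from the tables used here. Probes of similar sequence may share one signal, which was not tested for these 15. In 10 of the 15 the knockdown arrays were also higher than control by limma with the replicate 1 term, by 1.03 in IGLL5 (adjusted p = 0.0046). Without that term, which was chosen from these arrays, none of the 10 was called, with an adjusted p of 0.43 to 0.62.

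NUP62, a protein of the nuclear pore, measured 13.68 against 14.89 and 14.80 in control and 13.29 against 15.00 and 15.04 in knockdown, a difference of -1.45 (SE 0.14), and a second probe gave -1.46. All replicate 1 values were below the other 4, as the choice of names required. In RefSeq the NUP62 gene lies within the span of IL4I1, an amino acid oxidase gene, and its start overlaps ATF5. Both of these neighbours lay higher in replicate 1, ATF5 by 1.78 and IL4I1 by 1.48, with 9.06 against 7.82 and 7.54 in control and 8.92 against 7.21 and 7.47 in knockdown. Strand is set by the probe on these arrays, but labelling of overlapping transcripts was not tested. TCL1B, an activator of the kinase AKT, measured 14.32 against 15.22 and 15.30 in control and 14.85 against 15.82 and 15.91 in knockdown. BEST3 (-1.11), NID2 (-1.06), MICOS10-NBL1 (-0.94), IGFBP7 (-0.92) and CIRBP (-0.90), a cold-induced RNA-binding protein, were also among the 12 lowest symbols. A second probe gave -0.58 for BEST3 and -0.15 for CIRBP, and for KREMEN1 (-0.93) other probes of the gene reached 0.04.

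Genes of DNA replication lay lower as a group. All 32 measured members had a difference below 0, where 45.9% of all symbols did, with a median of -0.43. A total of 11 were called lower, where 1.6% of all symbols were, and none higher. In 21 both replicate 1 arrays lay below all others, against 13.5% of all symbols. CCNE2, a cyclin of the G1/S transition, measured 9.57 against 10.56 and 10.43 in control and 9.84 against 10.64 and 10.47 in knockdown, a difference of -0.82. FEN1 (-0.68), the flap endonuclease, GINS2 (-0.63), a part of the replicative helicase, and E2F1 (-0.60), the transcription factor, followed. PCNA, the sliding clamp, measured 14.08 against 14.65 and 14.65 in control and 14.23 against 14.80 and 14.54 in knockdown. MCM3, whose promoter is shown above, had a difference of -0.44, with both replicate 1 arrays below the 4 others. The median of the list, each gene centered on its mean, was -0.32, 0.09 and 0.02 on control replicates 1, 2 and 3 and -0.18, 0.25 and 0.13 on the knockdown ones. The count of calls depended on the arrays and the fit, being 0, 1 and 4 without control replicate 1, 2 and 3, 1, 0 and 1 without knockdown replicate 1, 2 and 3, 5 with replicate number as a block and 18 with normexp and quantile normalization. It was also 5 with spike-in scaling, 6 with a filter by shRNA group, 15 with bright patches masked and 18 with intensity trend and robust prior. No member was called with 75th percentile scaling, with no filter, or without both arrays of replicate 2 or of replicate 3. The median of the list stayed between -0.45 and -0.37 when single arrays were left out. In bulk RNA, fewer cells in a state and less RNA per cell cannot be told apart.

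Over all symbols 1.6% were called lower and 3.44% higher, shares near which a single call in the lists of mitosis and nucleotide synthesis lies. Genes of mitosis also lay lower on average. All 30 had a difference below 0, with a median of -0.28, and 1, the checkpoint kinase BUB1 (-0.49), was called, with 0 called when any single array was left out or with the block. Their array medians were -0.19, -0.12 and 0.10 on control replicates 1, 2 and 3 and -0.15, 0.10 and 0.27 on the knockdown ones. As in the replication list, both replicate 1 medians lay below the other 4, although that of control replicate 2 was close to them. The median of replicate 2 minus replicate 3 was -0.17 for mitosis and 0.14 for DNA replication. Of 20 genes of nucleotide synthesis 2 were called lower, TK1 (-0.55), thymidine kinase, and CTPS1 (-0.44), CTP synthase. This count was 1 without control replicate 1 and 0 without any other single array or with the block. Among 20 targets of p53, CDKN1A (0.74), the cell cycle inhibitor, BBC3 (1.17), an inducer of apoptosis, and TNFRSF10B (0.85), a death receptor, were called higher, whereas MDM2 (-0.79), the ligase that degrades p53, was called lower. The 3 higher calls became 1 without control replicate 1 or 2 or knockdown replicate 1 and 2 or 3 without the others, and MDM2 kept its call when control replicate 3 was left out but not without any other array. MDM2 measured 10.42 against 11.42 and 11.15 in control and 10.29 against 10.91 and 11.08 in knockdown.

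**Figure D3:**
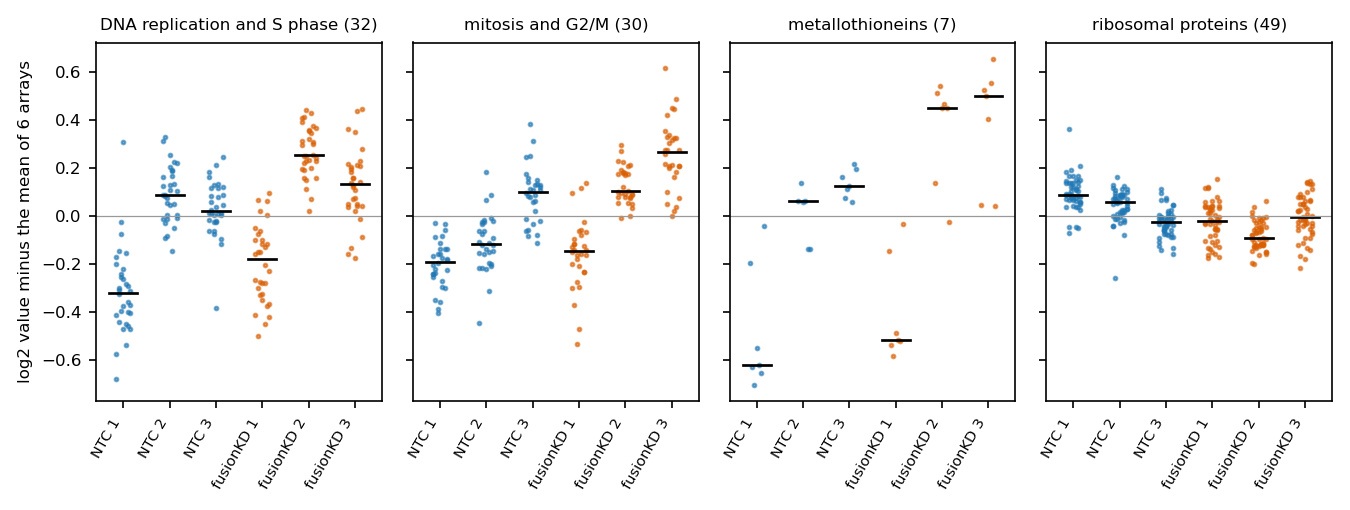
Each gene's level on each array, centered on its mean over the 6 arrays (log2 units), for the lists of DNA replication, mitosis, metallothioneins and ribosomal proteins, with points for genes and lines for medians. The replicate 1 medians of DNA replication, -0.32 and -0.18, lie below those of the other 4 arrays, and so do those of mitosis, -0.19 and -0.15, with control replicate 2 close above at -0.12.

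Metallothioneins also lay lower. Of 7 measured genes of the list, which includes the regulator MTF1, 5 were called lower and none higher, with a median of -0.85. Among all symbols 1.6% were called lower. MT1X measured 9.83 against 10.52 and 10.51 in control and 9.94 against 10.92 and 11.01 in knockdown, and MT1E 8.85 against 9.70 and 9.67 in control and 8.97 against 10.10 and 10.06 in knockdown. In both the replicate 1 arrays lay below all others. The count was 1 without knockdown replicate 1, 2 without knockdown replicate 2 and 4 or 5 without any other single array. MT2A (-0.88), MT1B (-0.88) and MT1H (-0.78) were the other called ones, and MT1A (-0.29) and MTF1 (-0.06), the metal-sensing transcription factor, were not called. Metallothionein genes are near-identical copies, and probes may hybridise to several of them. The pseudogene MT1L had a difference of -0.95. TFRC, the receptor for iron-loaded transferrin, was the 1 called gene among 14 of iron handling (-0.68). HSPB1, a small heat shock protein, was the 1 called among 17 heat shock genes (-0.53), of which 15 had a difference below 0. The HSPB1 call was lost when any single array was left out and with the block, and that of TFRC was lost without control replicate 2 or any knockdown array and with the block.

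Other lists held few or no calls, where 3.44% of all symbols were called higher and 1.6% lower. A single called member is near those shares and is no result about its list. Of 34 lists in all, 13 had no member called. These were glycolysis (18 genes, median -0.17), cholesterol synthesis (22, 0.12), fatty acid synthesis (15, 0.06), mitochondrial tRNA synthetases, oxidative stress (15, 0.04), ribosome biogenesis (30, -0.07), ribosomal proteins (49, 0.06), oxidative phosphorylation (35, -0.03), the proteasome (30, -0.07), autophagy and lysosome (27, 0.11), immediate early genes (18, 0.03), MHC class II (12, 0.14) and epithelial markers (5, -0.19). Under spike-in or 75th percentile scaling the sign of the median turned for fatty acid synthesis, oxidative stress, mitochondrial tRNA synthetases, ribosomal proteins, autophagy and immediate early genes. Of 16 hypoxia genes, BHLHE40 (1.31), a repressor of transcription, was called higher. The hypoxia gene VEGFA had a difference of 1.5 and was not called, with 7.67 against 5.59 and 5.68 in control but 7.67 against 6.14 and 7.26 in knockdown. TXNIP, an inhibitor of thioredoxin and glucose uptake, was the 1 called among 18 FOXO targets, and measured 12.67 against 11.87 and 12.02 in control and 13.18 against 11.28 and 11.01 in knockdown. The calls of BHLHE40 and TXNIP were both lost without knockdown replicate 1 or 3, and that of TXNIP also without replicate 2 of either group and with the block. ISG20 (0.76), IRF7 (0.73) and IFI44L (0.49) were called higher among 28 interferon-stimulated genes, and ICAM1 (0.83) and LTA (0.56) among 16 NF-kB targets. Without single arrays the interferon count was 0 to 2 and the NF-kB count 0 or 1, and with the block each was 1. In 28 of the 34 lists the median had the same sign in control and in knockdown.

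**Figure D4:**
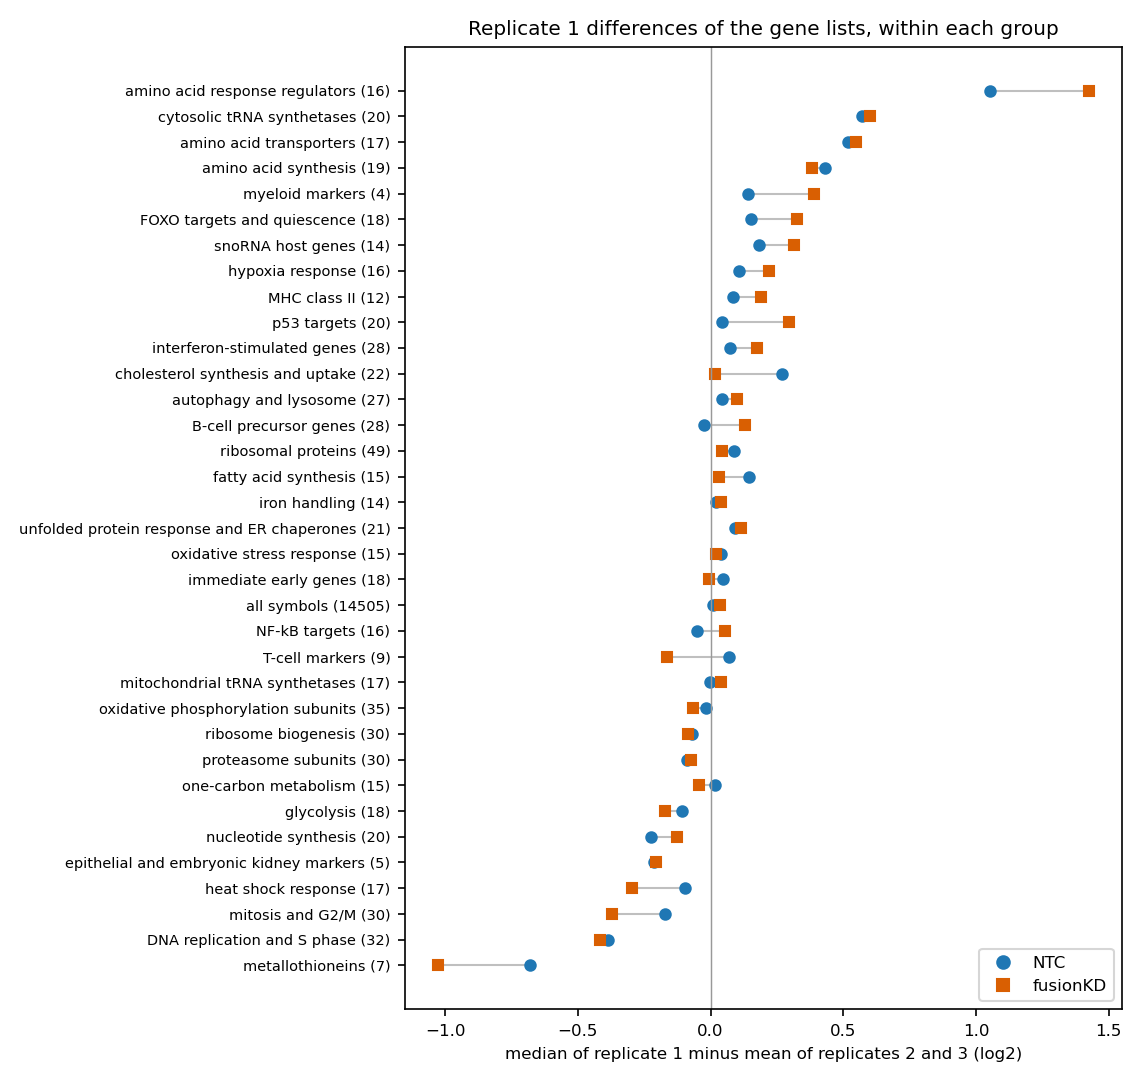
Median difference of replicate 1 from replicates 2 and 3 (log2 units) for each of the 34 gene lists, in control and in knockdown, with the number of measured members in brackets and all measured symbols as a further line. Amino acid response regulators lie highest, at 1.05 and 1.43, and metallothioneins lowest, at -0.68 and -1.03.

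B-cell identity genes showed little difference. Among all symbols 3.44% were called higher and 1.6% lower. Of 28 B-cell precursor genes, 1 was called, CD24 (-0.42), a surface protein, and their median was 0.06, which turned in sign with the scaling. The summed level of the 8 defining markers was 101.7 on control replicate 1 against 98.6 and 98.2, and 102.2 on knockdown replicate 1 against 99.8 and 100.3. Among them VPREB1, which was not retained, was well above background on 1 array, control replicate 1. There it measured 7.16 against 5.0 and 4.40, which made up most of the control difference in the sum. T-cell and myeloid lists had 1 call each, LCK (0.95), a lymphocyte kinase, and ITGAM (0.61), an integrin of myeloid cells. Without any single array the counts of the B-cell precursor and myeloid lists were 0, and that of the T-cell list was 0 without control replicate 2 or knockdown replicate 1 or 3 and 2 without control replicate 1. Summed markers of T cells ran from 22.7 to 23.2 on replicate 1 arrays and from 23.2 to 25.3 on the others, and those of epithelium from 28.5 to 29.1 and from 29.1 to 29.5.

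Long non-coding RNAs differed about as often as mRNAs. Of 7528 retained lncRNA probes, 294 were called (3.91%), 222 higher and 72 lower, compared with 4.42% of mRNA probes. ENST00000427169 measured 9.11 against 6.66 and 6.55 in control and 8.78 against 6.74 and 6.73 in knockdown, a difference of 2.28, and lnc-CCDC37-2 had one of 1.98. The other 3 of the 5 highest names, TCONS_00010510, ENST00000455612 (2.36) and TCONS_00019529 (2.28), had a control replicate 1 spot in a bright patch. With it masked the differences were 1.05 for ENST00000455612 and 1.15 for TCONS_00019529. The latter lost its call with the spot masked and was well above background on 1 of the 4 other arrays. TCONS_00010510 was well above background on none of these 4 and was retained only through the replicate 1 arrays. It measured 8.13 on control replicate 1, in the patch, and 6.60 on knockdown replicate 1. With the patch spot masked its difference was 1.89, so that no lower bound is given for it. Lowest were ENST00000457019, with 5.82 against 6.85 and 6.88 in control and 5.85 against 7.12 and 6.83 in knockdown, ENST00000564394 (-1.0), ENST00000563087 (-0.86), lnc-TNFAIP6-2 (-0.85) and ENST00000413987 (-0.84). Host genes of small nucleolar RNAs, whose spliced transcripts are degraded during translation, went both ways. Among all symbols 3.44% were called higher and 1.6% lower. EPB41L4A-AS1 (0.89), SNHG7 (0.73) and GAS5 (0.47) were called higher and SNHG12 (-0.72) and SNHG9 (-0.55) lower, among 14. A second SNHG7 probe gave -0.38. No member was called without control replicate 1 or without knockdown replicate 1, and 1 lower and none higher without replicate 2 of either group.

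Structural RNAs were also covered by some catalogue probes, a set chosen after their values were seen. Of 38 probes, 6 were called higher and none lower, with a median of 0.15, where 2.9% of all retained probes were called higher. RNA5-8SN5, a 5.8S ribosomal RNA gene, measured 17.08 against 15.06 and 14.54 in control and 16.27 against 14.64 and 14.60 in knockdown. RNA18SN5 had a difference of 0.90, but the 4 probes of RNA28SN5 ran from -0.10 to 0.14. Of 12 small Cajal body RNAs 3 were called higher, with a median of 0.39. Ribosomal RNA genes are near-identical copies, and RNA quality values were not used here, so that the part of RNA quality or labelling in these differences was not tested.

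Next, it was tested whether the replicate 1 difference had another size in knockdown than in control. Each group has a single replicate 1 array, so that the spread came from replicates 2 and 3 alone, the lone array was assumed to vary like them, and 1 bright spot can make a call. Limma called 192 of 30987 probes (0.62%) for this interaction, 121 higher in control replicate 1 and 71 higher in knockdown replicate 1. No member of the 34 lists was called. With 2 residual degrees of freedom the test leaves smaller differences between the groups undetected. Of the 192, 140 (72.9%) had a replicate 1 spot in a bright patch, compared with 853 (2.75%) of all retained probes. A patch was defined, after the data were seen, as a place where at least 25% of spots within 3 rows and columns exceeded the median of the other arrays by over 1. Such spots made up 1.38% of control replicate 1, 0.882% of knockdown replicate 1, 1.68% of control replicate 3 and 0.0894% to 0.405% of the others. With them masked, 30 of 30221 probes were called, all among the 192, and 1721 probes for the replicate 1 difference, of which 1301 were shared. Without control replicate 2, 408 were called for the interaction. Of the 1330, 55 had a replicate 1 spot in a patch.

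**Figure D5:**
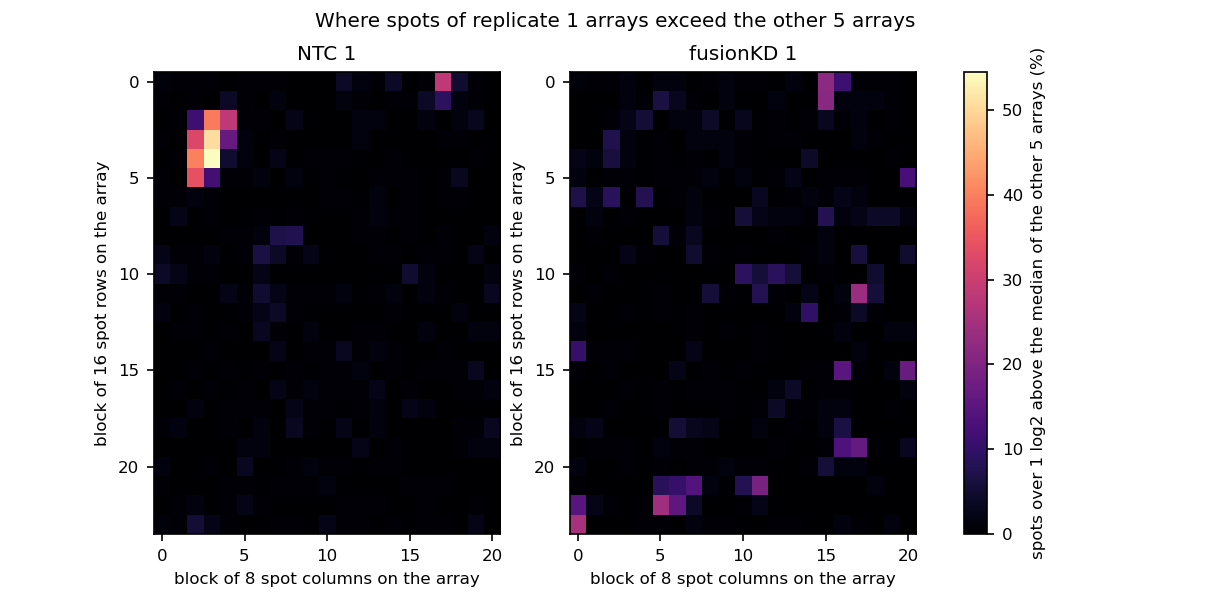
Share of spots (percent) that exceeded the median of the other 5 arrays by over 1 log2 unit, in 504 blocks of spots in the layout of rows and columns of each replicate 1 array. Control replicate 1 has 8 blocks at 20% or more, the highest at 54.5%, and knockdown replicate 1 has 5, the highest at 25.4%.

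Replicates 2 and 3 were compared for scale, in a fit with 2 residual degrees of freedom, fewer than in the main fit. With the same terms 620 probes were called for replicate 1. Limma called no probe between replicates 2 and 3, and 1132 had an unadjusted p under 0.05. Other settings also gave 0 calls, except spike-in scaling with 83 and leaving out knockdown replicate 3 with 110. TOMM20L, a relative of a mitochondrial import receptor, measured 10.79 and 10.01 on control replicates 2 and 3 and 10.82 and 9.97 on the knockdown ones, the lowest unadjusted p, followed by SLC12A7, PCP4, AL834536 and ENST00000415410. In all of these the replicate 2 and 3 values kept their order in both groups, which the choice by lowest p favours.

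Finally, the knockdown was compared with control with the replicate 1 term in the fit. Limma called 1069 probes (3.45%), 396 higher (1.28%) and 673 lower (2.17%) in knockdown, against 387 without the term, all of which were among the 1069. The term was chosen from these same arrays. Of the 682 calls it added, 193 were of probes also called for replicate 1, and without it 9 such probes were called for the knockdown. Under spike-in scaling, which moved the median of all probes to 0.24, the split was 1284 higher and 268 lower, and with replicate number as a block of 3 levels 689 were called, 217 higher and 472 lower. Leaving out control replicate 1, 2 or 3 gave 504, 376 or 615 calls, and leaving out knockdown replicate 1, 2 or 3 gave 504, 435 or 418. The replicate 1 contrast uses the same arrays, and each contrast's own values are given side by side. TM4SF1, a tetraspanin-like membrane protein, had the lowest p and a knockdown difference of -4.71, beside a replicate 1 difference of 0.18. EFNA1 (-2.29), a ligand of Eph receptors, and ITGA6 (-2.37), a laminin-binding integrin, had replicate 1 differences of 0.21 and 0.37. ATP6V0A4 (-2.77) and OLIG3 (-2.85), also among the 5 of lowest p, had replicate 1 differences of 0.23 and 0.10. In the 5 lists of amino acid metabolism and its regulators, by the brightest probe of each gene, limma called higher in knockdown 3 of 16 response regulators, 1 of 19 genes of amino acid synthesis, 1 of 15 of the folate pathway, 2 of 17 transporters and 1 of 20 cytosolic tRNA synthetases, and none lower. These were TRIB3 (1.1, adjusted p = 0.0052), DDIT4 (0.76, adjusted p = 0.0089), ATF5 (0.59, adjusted p = 0.041), GPT2 (0.85, adjusted p = 0.0049), AMT (0.72, adjusted p = 0.013), SLC7A3 (0.62, adjusted p = 0.032), SLC6A9 (0.50, adjusted p = 0.04) and WARS1 (0.48, adjusted p = 0.0496). CHAC1 (0.20, adjusted p = 0.59) and ASNS (-0.01, adjusted p = 0.98) were not called, and ASS1 was called at one probe (0.54, adjusted p = 0.036) but not at its brightest (0.31, adjusted p = 0.20). None of the 8 calls in these lists was made by limma without the replicate 1 term, where their adjusted p ran from 0.29 to 0.90.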

How the data were processed

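Expression was measured in REH cells on 6 Agilent arrays, 3 control and 3 knockdown, with Cy3-labelled RNA in a single color. The authors extracted spot intensities with Feature Extraction 10.7.1.1, per the file headers, and none of these intensities was scaled between arrays before they were deposited. The authors also deposited log2 values that they had normalized by variance stabilization (VSN) and filtered against negative controls, and these served as an alternative. Values computed here correlated with it at r from 0.99906 to 0.99967 across probes.

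Raw median spot intensity was normalized with the VSN model, written anew, since the vsn package was not used. The result is a generalised log2 scale, which understates the differences of dim probes. Spots with outlier flags were dropped, and repeated spots were averaged by probe. Retained were probes that exceeded 1.1 times the 0.95 quantile of 308 negative control spots on both replicate 1 arrays or on at least 3 of the other 4. This retained 30992 probes, 1796 of them only through the replicate 1 arrays and 769 only through the others. Of the called ones, 68 and 11 were retained in these ways. Catalogue probes were named through RefSeq accessions (25728 of 34134), and symbols with several probes are given by the brightest in list counts. A named gene is given by its probe of lowest p.

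Limma 3.58.1 in R 4.3.3 (lmFit, eBayes, two-sided, Benjamini-Hochberg over all retained probes) was fitted to all 6 arrays with terms for replicate 1 and group. The contrast, gene lists and alternatives were chosen with earlier results of these data known. Named are the 12 highest and 12 lowest called symbols and 5 and 5 lncRNAs without overlap of the sides, the 4 members of lowest p in each list, and the 5 of lowest p for the other contrasts. Defining members and members without a call were also named. Where a level was not well above background on one side, the size of its difference depends on the background level. Deviations from the group means correlated, across probes, at 0.397, 0.253 and 0.184 between arrays numbered 1, 2 and 3, so that the numbers were treated as pairs in the fit with replicate number as a block. Between numbers 2 and 3 they correlated at 0.184 and 0.165. The fits were tested on simulated data. The number of arrays limits the precision throughout, and p-values measure the spread between these arrays.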

Additional observations from a re-analysis of the deposited data

Results flagged for a closer look

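Limma called 192 probes for a replicate 1 difference that was not the same in knockdown and control, of which 30 were called with bright patches masked. The 5 names of lowest p were each bright on a single replicate 1 array, and roles of these genes in this pattern were not tested. ENST00000518639 measured 15.60 on knockdown replicate 1 and 5.47 to 5.95 on the other arrays, so that its replicate 1 difference was 9.86 larger in knockdown, and its spot lay in a bright patch. SLC25A26, a mitochondrial carrier, measured 17.59 on control replicate 1 and 6.70 to 7.05 elsewhere, a difference between groups of -10.45. A_33_P3413384, a probe without a gene name in the tables used here, measured 16.54 on knockdown replicate 1 and 5.70 to 6.04 elsewhere, a difference of 10.48. Neither of these 2 lay in a patch. OR1N1, an olfactory receptor gene, measured 11.14 on knockdown replicate 1, with a difference of 5.43, and SLC22A7, an organic anion transporter, 9.20 on control replicate 1, with a difference of -3.90. Both lay in patches. A second SLC22A7 probe was not bright in replicate 1. ENST00000518639, OR1N1 and SLC22A7 were not well above background on any replicate 2 or 3 array, so that the sizes of their differences depend on the background level and are not measured folds. Each group has 1 replicate 1 array, and each of these calls rests on 1 spot.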

How the results depend on the processing

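The count of 1330 probes for replicate 1 moved under most alternatives. It was 183 with the processed signal and the 75th percentile, 2163 with normexp and quantile normalization, 633 with spike-in scaling, 141 with no filter, 2508 with intensity trend and robust prior, 604 with the slide row as a term, which fits control replicate 3 exactly and so equals leaving that array out for this contrast, and 307 with no group term. Leaving out single arrays gave 256 to 706 probes, and leaving out both arrays of replicate 2 or of replicate 3 gave 80 or 133. The deposited values gave 1361. A filter by shRNA group, in place of the sides of the contrast, gave 896, with 623 higher and 273 lower. With replicate number as a block of 3 levels to use the pairing, 620 were called for replicate 1 and 689 for the knockdown, and among 116 named genes 28 lost the call, such as PCNA, MCM3, TK1, TXNIP, TFRC, HSPB1, CD24 and ITGAM. The interaction count of 192 became 0 with the 75th percentile, 74 with the deposited values, 437 with spike-in scaling, 30 with bright patches masked and 370 with no filter, and 139 to 408 without single arrays. It could not be fitted without a replicate 1 array. Replicates 2 and 3 gave 83 calls with spike-in scaling and 0 to 110 without single arrays. The knockdown count of 1069 became 460 with the 75th percentile, 364 with no filter, 1665 with trend and robust prior, 528 with the slide row, 387 with no replicate 1 term, 504 without both replicate 1 arrays and 376 to 615 without single arrays. The split of interaction calls, higher in knockdown against higher in control replicate 1, was 71 to 121, but 308 to 129 with spike-in scaling, 76 to 84 with normexp, 40 to 34 with the deposited values and 17 to 13 with patches masked. For 116 named genes over all settings, 1629 of 2430 values kept direction and call, 801 lost the call and 0 turned direction. For 18 genes no call was lost. Masking was chosen after seeing the data. The slide column could not be fitted, as it left no residual degrees of freedom, and the causes of these changes were not tested.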

Other observations

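Further genes were looked at outside the lists and were chosen after their values were seen. Beside the counted list of myeloid markers, in which 1 of 4 was called, some genes known from myeloid cells are given because they lay higher in replicate 1. Picked in this way, they describe no myeloid state of the cells. CTSG, a protease of neutrophil granules, measured 7.06 on control replicate 1 against 5.90 and 5.35 and 8.06 on knockdown replicate 1 against 5.77 and 6.08. ALOX5AP, which presents arachidonate to 5-lipoxygenase, had a difference of 1.46, MMP25, a membrane-bound metalloprotease, of 1.17 and CSF3R, the receptor of granulocyte colony-stimulating factor, of 0.82. The defining myeloid markers CD14 and CSF1R showed no like difference, with a summed level of the 3 defining markers from 19.8 to 20.5 over all 6 arrays. CSF1R was lower on control replicate 1, at 7.33 against 7.64 and 7.89, and measured 7.52 against 7.71 and 7.47 in knockdown. CEACAM1, an adhesion molecule, had a difference of 1.16.

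TCL1A, a partner of the kinase AKT, measured 16.11 against 16.74 and 16.83 in control and 16.31 against 17.05 and 17.15 in knockdown. ID3 (-0.84), an inhibitor of E proteins, and IRF4 (-0.64) and BACH2 (-0.52), transcription factors, were lower. CCND2, a cyclin of G1 phase, measured 10.05 against 9.32 and 8.95 in control and 7.93 against 6.70 and 6.70 in knockdown, and was higher in replicate 1 by 1.07. TSC22D3, a gene induced by glucocorticoids, had a difference of 1.14.

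Single genes picked because they were lower were E2F8 (-0.69) and MYBL2 (-0.61), transcription factors, BRIP1 (-0.66) and EXO1 (-0.61), a helicase and an exonuclease of DNA repair, ESCO2 (-0.66), which acetylates cohesin, and FAM111B (-0.76). EIF2AK3, a kinase that activates the ATF4 pathway from the endoplasmic reticulum, was lower by -0.58, and EPAS1, a hypoxia-inducible factor, by -0.91. DDIT4L (1.86) and CREBRF (0.93) were higher.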
